A study of Mus musculus with 8 samples.

Results

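The genes described here encode the machinery of regulated exocytosis, the step at which an endocrine cell releases the hormone stored in its granules. They were taken as a list of 48 genes that covers the synaptotagmins, the SNARE proteins, the docking and priming factors, the Rab3 and Rab27 GTPases with their effectors, and membrane proteins of granules and vesicles. Of the 48 genes, 47 were matched to a probe by RefSeq accession and 45 were tested, out of 15320 named genes tested in all. *Syt5* was not matched to a probe and is not analysed here. The probes of *Cadps2* and *Sytl2* stayed below the limit for a signal well above background on all 8 arrays. Gene expression was compared between AtT20 cells incubated for 48 hr without HX630 (control, n = 4) and with 10 μM HX630 (n = 4). AtT20 is an established line of murine pituitary corticotroph tumor cells that release ACTH. HX630 is a synthetic retinoid X receptor (RXR) agonist. Both groups were kept in DMEM with 1% stripped FBS during the incubation.

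Regulated exocytosis proceeds in steps. Rab3 and Rab27 GTPases bring a granule to the plasma membrane through their effectors, and priming factors help the SNARE proteins of granule and plasma membrane to assemble. Synaptotagmins then couple a rise in calcium to fusion, after which NSF and the SNAP adaptors take the SNARE complex apart. In corticotrophs this pathway releases ACTH.

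The arrays were read in 1 color, and the authors' processed intensity was expressed as log2 signal relative to the 75th percentile of each array, so that a signal of 0 stands for that percentile. Where several probes of a gene were tested, the brightest stood for the gene. A gene was called when its adjusted p in limma was below 0.01 (Benjamini-Hochberg, over all probes tested) and its fold change was above 1.5, which is 0.585 on the log2 scale. The 75th percentile of intensity lay between 1335 and 1900, and 69.7% to 73.5% of probes were well above background. The control arrays shared 1 slide and the HX630 arrays a second slide, so slide and treatment cannot be told apart. The labels do not say that the arrays came from separate cultures, and p-values here measure the spread between these samples, which may be technical. Control replicate 1 stood somewhat apart from its group, with a mean correlation of 0.9946 to the other controls against 0.9962 to 0.9963 for the rest. All 6 corticotroph markers examined, *Pomc* and *Tbx19* among them, were well above background on all 8 arrays, and all 6 passed the adjusted p. *Pcsk1* was called lower (log2 fold change -2.06), *Crhr1* (1.11) and *Neurod1* (0.72) were called higher, and *Pomc* (-0.45), *Tbx19* (-0.37) and *Pitx1* (-0.32) fell by less than 1.5-fold. Of 11 markers of other pituitary cells, 6 were tested, while *Prl*, *Tshb*, *Fshb*, *Cga* and *S100b* were not above background on enough arrays. *Gh* and *Sox2* were called lower, with log2 fold changes of -0.79 and -1.23, while *Ghrhr* (0.81), *Pou1f1* (0.26), *Lhb* (0.23) and *Nr5a1* (-0.30) were not past the test. The summed signal of the 6 markers, as a multiple of the 75th percentile, was 0.856 to 1.1 on the control arrays and 0.546 to 0.659 on the HX630 arrays. Without *Sox2* it was 0.317 to 0.5 and 0.318 to 0.387, and the groups overlapped. The part of all these markers in the results below was not tested.

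With HX630, genes at several steps of the pathway rose and others fell, while *Snap25* and *Vamp2*, which encode partners in the core fusion complex, did not pass the test. Of the 45 genes tested, *Syt13*, *Sytl4*, *Rims3*, *Syt1*, *Rab3d*, *Stx1a* and *Cadps* were called higher and *Unc13a*, *Ptprn*, *Cplx1* and *Syt7* were called lower. The 7 genes called higher were 15.6% of those tested, where 8.38% of all genes were called higher. The 4 genes called lower were 8.89%, where 11.2% of all genes were called lower. Called in either direction were 11 genes (24.4%), against 19.5% of all genes. A further 9 genes rose and 8 fell at an adjusted p below 0.01 with a fold change under 1.5. By the adjusted p alone, 16 genes were higher, where the share of all genes was 24%, and 12 were lower, where it was 27.2%. Together they were 62.2% of the genes tested, against 51.2% of all genes. The HX630 and control arrays did not overlap for 30 of the 45 genes (66.7%), against 61.5% of all genes. The median log2 fold change was 0.0073 over the 45 genes and -0.034 over all genes, whereas the median size of the change regardless of sign was 0.37 and 0.28. These shares stand side by side without a test, since the list was drawn up with results of these arrays known.

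**Figure D1:**
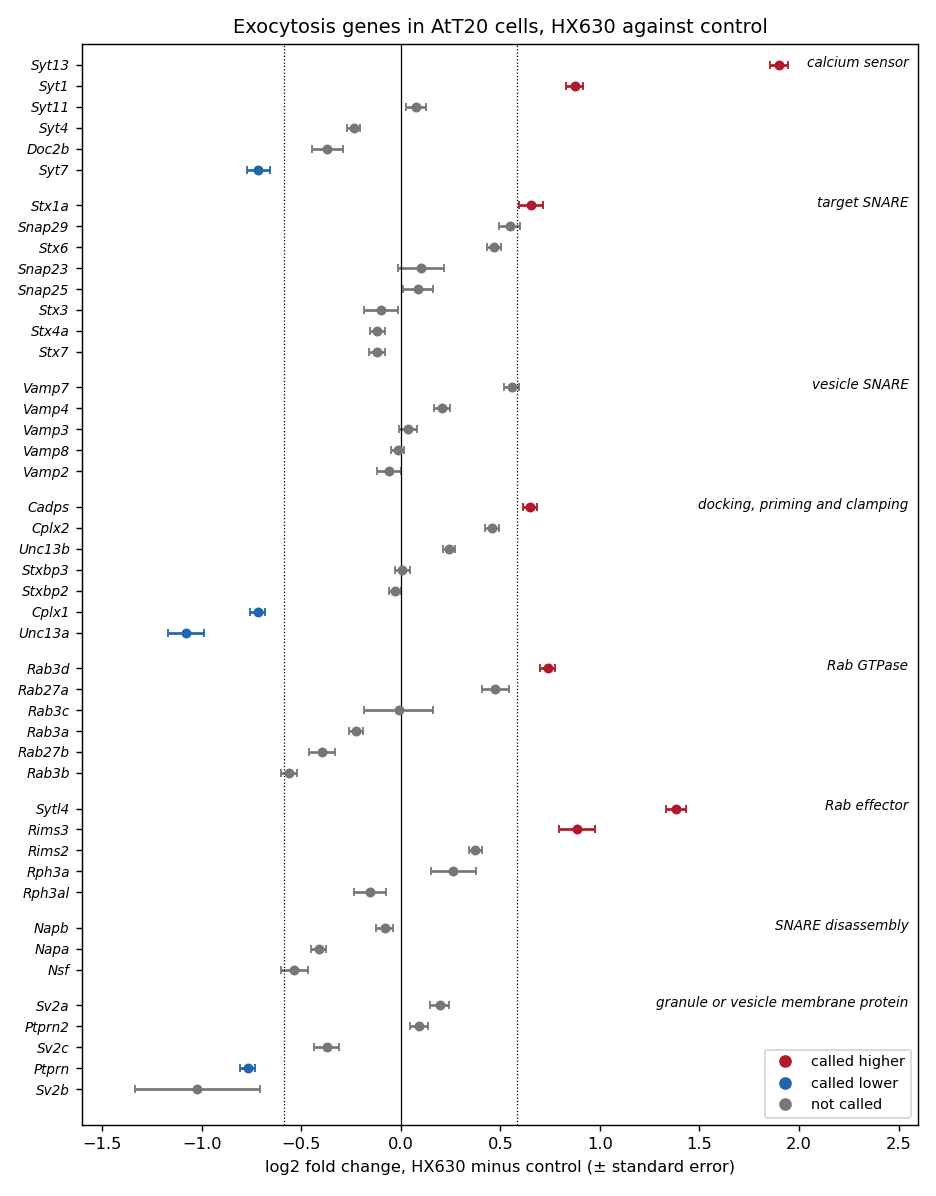
Log2 fold change of the 45 exocytosis genes tested, HX630 minus control, grouped by role, with the standard error from limma as horizontal bars. Dotted lines mark a fold change of 1.5. The 7 genes called higher (red) lie right of the dotted line and the 4 genes called lower (blue) lie left of it, while *Sv2b* lies beyond the line without being called.

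Among the synaptotagmins and *Doc2b*, grouped here as calcium sensors though not all bind calcium, *Syt13* and *Syt1* rose and *Syt7* fell. *Syt13* encodes an atypical synaptotagmin whose calcium-binding domains lack the residues that hold calcium. *Syt13* had a log2 signal of 2.31, 2.23, 2.13 and 2.19 on control arrays 1 to 4 and 4.08, 4.14, 4.10 and 4.15 on HX630 arrays 1 to 4. All HX630 arrays lay far above all control arrays, and the change was the largest rise in the list at 3.74-fold (log2 fold change 1.90, standard error 0.0445, adjusted p = 1.05e-07). *Syt1* encodes the fast calcium sensor of synaptic vesicles and dense-core granules. *Syt1* had a log2 signal of 2.41, 2.33, 2.35 and 2.31 on control arrays 1 to 4 and 3.31, 3.22, 3.18 and 3.19 on HX630 arrays 1 to 4. The groups did not overlap, and the signal was 1.83-fold higher with HX630 (log2 fold change 0.87, standard error 0.0413, adjusted p = 1.34e-06). *Syt7* encodes a sensor of high calcium affinity that acts in slower release. *Syt7* had a log2 signal of -0.042, 0.087, 0.085 and 0.020 on control arrays 1 to 4 and -0.55, -0.79, -0.72 and -0.65 on HX630 arrays 1 to 4. All HX630 arrays were below all control arrays, by 1.64-fold in the mean (log2 fold change -0.72, standard error 0.0585, adjusted p = 2.46e-05), and its dimmer probe also fell, by 0.62 on the log2 scale (adjusted p = 1.12e-04). With spike-in scaling *Syt7* was at -0.50 and was not called.

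None of the other genes of this group was called. *Syt4*, another atypical synaptotagmin, had a log2 fold change of -0.24 (adjusted p = 4.54e-04), and *Doc2b*, a soluble protein with paired calcium-binding domains, one of -0.37 (adjusted p = 0.00435). Both passed the adjusted p in limma with groups that did not overlap, but under a fold change of 1.5. *Syt4* was at -0.15 with median scaling (adjusted p = 0.036) and at -0.018 with spike-in scaling (adjusted p = 0.76). The *Doc2b* probe is dim. Its adjusted p was 0.0309 with median scaling, 0.178 with quantile normalization, 0.225 with spike-in scaling and 0.0287 with normexp. *Syt11* was not past the test (0.075, adjusted p = 0.227).

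Promoter sequence from RefSeq (assembly GRCm38.p6, 250 bases before and 50 after a start) was matched by symbol to 36 of the 48 genes and to 9 of the 11 called genes. The array design carries another build, so the sequences serve as context only. Both strands were searched for the DR1 element of RXR (a pair of the hexamers named next, 1 base apart), for the single hexamer (AGGTCA), for the NBRE of the Nur77 family (AAAGGTCA), which contains the hexamer, and for the cAMP response element (TGACGTCA). The DR1 was in none of the 47 windows of these genes and in 0.0396% of all windows. The NBRE was in none either, against 1.51% of all windows. The hexamer was found for *Syt1*, *Ptprn* and *Rph3al*, against 16.3% of all windows, and the cAMP response element for *Napa* and *Stxbp3*, against 1.79%. The stretch upstream of a *Syt1* start and that upstream of a *Ptprn* start are shown because the hexamer, in capitals, stands in a gene that rose and in a gene that fell.
Syt1 (chr10:109009112-109009361, minus strand): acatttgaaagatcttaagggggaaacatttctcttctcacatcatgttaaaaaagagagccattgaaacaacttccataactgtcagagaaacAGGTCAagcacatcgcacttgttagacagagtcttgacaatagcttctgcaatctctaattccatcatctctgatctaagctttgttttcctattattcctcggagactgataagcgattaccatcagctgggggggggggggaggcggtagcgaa
Ptprn (chr1:75264209-75264458, minus strand): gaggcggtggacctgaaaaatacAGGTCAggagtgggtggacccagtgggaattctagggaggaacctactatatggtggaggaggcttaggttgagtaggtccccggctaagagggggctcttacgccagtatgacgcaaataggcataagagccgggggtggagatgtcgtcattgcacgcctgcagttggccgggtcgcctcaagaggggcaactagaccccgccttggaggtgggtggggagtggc

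Of the target-membrane SNAREs, *Stx1a*, the syntaxin of the neuronal and endocrine fusion complex, was the gene called. *Stx1a* had a log2 signal of -5.39, -5.29, -5.34 and -5.29 on control arrays 1 to 4 and -4.67, -4.74, -4.76 and -4.52 on HX630 arrays 1 to 4. The groups did not overlap, with HX630 replicate 4 the highest, and the change was 1.57-fold (log2 fold change 0.66, standard error 0.0595, adjusted p = 4.38e-05). This is a dim probe, and with normexp background correction its log2 fold change was 0.043 (adjusted p = 0.795). *Snap29*, a SNARE of autophagosome and endosome fusion, and *Stx6*, a syntaxin of the trans-Golgi network, were higher by less than 1.5-fold. Their log2 fold changes were 0.55 (adjusted p = 5.91e-05) and 0.47 (adjusted p = 1.58e-05). The dimmer probe of *Snap29* was not past the test (0.18, adjusted p = 0.0421), and that of *Stx6* was at 0.45 (adjusted p = 2.12e-04).

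*Snap25*, the partner of syntaxin in the fusion complex, did not pass the test. *Snap25* had a log2 signal of 3.09, 2.77, 2.96 and 3.01 on control arrays 1 to 4 and 2.96, 3.08, 3.01 and 3.13 on HX630 arrays 1 to 4. The groups overlapped (log2 fold change 0.087, standard error 0.074, adjusted p = 0.347). *Stx3*, *Stx4a* and *Stx7*, syntaxins of the plasma membrane and of late endosomes, had log2 fold changes, by their brightest probes, between -0.12 and -0.10 with adjusted p between 0.029 and 0.337. *Snap23*, the widely expressed relative of *Snap25*, depended on the probe. Its brightest probe was not past the test (0.10, adjusted p = 0.478), while its dimmer probe fell by 0.97 on the log2 scale (adjusted p = 4.61e-07). The dimmer probe of *Stx3* fell by 0.65 on the log2 scale (adjusted p = 3.31e-04) as well, and that of *Stx4a* fell by 0.27 on the log2 scale (adjusted p = 1.32e-04).

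None of the 5 vesicle SNAREs was called. *Vamp2* had a log2 signal of 1.60, 1.72, 1.78 and 1.81 on control arrays 1 to 4 and 1.55, 1.67, 1.70 and 1.74 on HX630 arrays 1 to 4. *Vamp2* is the vesicle SNARE of the fusion complex, and its groups overlapped (log2 fold change -0.059, adjusted p = 0.443). *Vamp3* and *Vamp8*, which serve recycling and late endosomes, stood at 0.035 and -0.016. *Vamp7*, a SNARE of late endosomes and lysosomes, was higher on every HX630 array by just under the fold change threshold (log2 fold change 0.56, standard error 0.0368, adjusted p = 7.65e-06), and *Vamp4*, a SNARE of the trans-Golgi network, rose by 0.21 (adjusted p = 0.00256), with 0.48 for its dimmer probe (adjusted p = 5.57e-05).

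Among the docking and priming factors, *Unc13a* and *Cplx1* fell and *Cadps* rose. *Unc13a* encodes a Munc13 priming factor that opens syntaxin for SNARE assembly. *Unc13a* had a log2 signal of -1.66, -1.51, -1.56 and -1.76 on control arrays 1 to 4 and -2.48, -2.73, -2.86 and -2.74 on HX630 arrays 1 to 4. The groups did not overlap, and HX630-treated cells held 47.3% of the control signal (log2 fold change -1.08, standard error 0.09, adjusted p = 2.74e-05). *Cplx1* encodes a complexin, a small protein that holds the assembled SNARE complex before calcium arrives. *Cplx1* had a log2 signal of -1.15, -1.06, -1.03 and -1.12 on control arrays 1 to 4 and -1.76, -1.86, -1.81 and -1.80 on HX630 arrays 1 to 4. All HX630 arrays were lower than all control arrays (log2 fold change -0.72, standard error 0.0398, adjusted p = 2.95e-06), but with spike-in scaling the gene was at -0.50 and was not called. *Cadps* encodes a priming factor of dense-core granules. *Cadps* had a log2 signal of 0.77, 0.74, 0.69 and 0.77 on control arrays 1 to 4 and 1.38, 1.38, 1.35 and 1.45 on HX630 arrays 1 to 4. Here too the groups were apart, and it was 1.57-fold higher, just past the threshold (log2 fold change 0.65, standard error 0.036, adjusted p = 2.97e-06).

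The close relatives of *Unc13a* and *Cplx1* had log2 fold changes of the opposite sign. *Unc13b* was higher with HX630 by 0.24 (adjusted p = 2.77e-04) and *Cplx2* by 0.46 (adjusted p = 2.06e-05), both under a fold change of 1.5. The latter was called higher with quantile normalization (0.65, adjusted p = 2.36e-06) and with spike-in scaling (0.68, adjusted p = 1.18e-05). Of the other 3 probes of *Cplx2*, none passed the test, with log2 fold changes from 0.0042 to 0.45. *Stxbp2* (-0.029) and *Stxbp3* (0.0073), which encode Munc18 partners of the syntaxins, were not past the test (adjusted p = 0.45 and 0.878).

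The starts of *Unc13a* and *Ptprn2* carried the letters of both parts of RE1, the element bound by the neuronal repressor REST. The left part (TTCAGCACC) was in 0.371% of all promoter windows and the right part (GGACAGCG) in 1.26%, on either strand, and among the exocytosis genes with a window each was found in these genes only. Both parts lay just downstream of the start, on the opposite strand, and are shown in capitals because of the contrast between a gene that fell and one that was not past the test.
Unc13a (chr8:71671727-71671751, minus strand): CGCTGTCCgcgcccccGGTGCTGAA
Ptprn2 (chr12:116485725-116485741, plus strand): CGCTGTCCGGTGCTGAA
The parts were 8 bases apart in *Unc13a* and adjacent in *Ptprn2*. They were searched for separately, at any spacing, so neither gene is shown to hold the whole element. How often both parts fall in the same window was not counted over all windows. These are matches of letters, and binding was not measured.

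Of the Rab GTPases that tether granules, *Rab3d* was called higher. *Rab3d* had a log2 signal of -0.048, -0.023, -0.12 and -0.034 on control arrays 1 to 4 and 0.62, 0.72, 0.68 and 0.71 on HX630 arrays 1 to 4. The groups did not overlap (log2 fold change 0.74, standard error 0.0381, adjusted p = 2.05e-06), and the dimmer probe of the gene gave 0.46 (adjusted p = 0.00574). *Rab3b* went the other way. *Rab3b* had a log2 signal of -0.11, -0.012, -0.066 and -0.047 on control arrays 1 to 4 and -0.58, -0.68, -0.64 and -0.58 on HX630 arrays 1 to 4. Its groups did not overlap, and it fell to 67.8% of the control signal, by slightly less than the threshold (log2 fold change -0.56, standard error 0.0392, adjusted p = 1.01e-05). *Rab3a*, the main Rab3 of neurons, also fell (-0.23, adjusted p = 6.39e-04). This small fall depended on the scaling. It was -0.14 with both quantile normalization (adjusted p = 0.0108) and median scaling (adjusted p = 0.0463), and -0.0069 with spike-in scaling (adjusted p = 0.901). *Rab3c* was not past the test (-0.011, adjusted p = 0.961), and its arrays spread widely within both groups, with SDs of 0.294 and 0.251. *Rab27a* rose by 0.47 (adjusted p = 5.62e-04), whereas *Rab27b* fell by 0.40 on the log2 scale (adjusted p = 0.00131), both with groups that did not overlap and both under the threshold. With spike-in scaling *Rab27a* was called higher at 0.69, and *Rab27b* was at -0.18 (adjusted p = 0.0576).

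Of the genes grouped here as Rab effectors, *Sytl4* and *Rims3* rose. *Sytl4* encodes granuphilin, which links Rab27 on the granule to syntaxin and docks insulin granules in beta cells. *Sytl4* had a log2 signal of 1.45, 1.63, 1.48 and 1.41 on control arrays 1 to 4 and 2.87, 2.89, 2.88 and 2.86 on HX630 arrays 1 to 4. The HX630 arrays lay within 0.030 of each other and all above the controls, and the signal was 2.61-fold higher (log2 fold change 1.38, standard error 0.0506, adjusted p = 4.64e-07). The stretch upstream of its start, the gene being the largest riser with a matched promoter, held none of the motifs searched.
Sytl4 (chrX:133981813-133982062, minus strand): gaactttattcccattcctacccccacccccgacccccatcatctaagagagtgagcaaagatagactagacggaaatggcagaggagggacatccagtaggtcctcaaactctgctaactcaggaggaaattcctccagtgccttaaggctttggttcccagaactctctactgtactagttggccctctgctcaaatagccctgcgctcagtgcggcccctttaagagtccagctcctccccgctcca
*Rims3* encodes a short member of the RIM family of release-site scaffolds. *Rims3* had a log2 signal of -4.73, -4.67, -5.04 and -4.81 on control arrays 1 to 4 and -3.99, -4.02, -3.89 and -3.81 on HX630 arrays 1 to 4. The groups did not overlap (log2 fold change 0.89, standard error 0.0883, adjusted p = 7.45e-05). The probe is dim, and under normexp the log2 fold change was 0.35 (adjusted p = 0.0477), so that the gene was no longer called. *Rims2*, a Rab3-binding scaffold, rose by 0.37 (adjusted p = 2.80e-05). *Rph3a*, which encodes rabphilin, and *Rph3al*, which encodes its relative Noc2, were not past the test, at 0.26 (adjusted p = 0.0781) and -0.16 (adjusted p = 0.126).

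The genes that take the SNARE complex apart had negative log2 fold changes. *Nsf*, the ATPase of this step, fell to 69% of the control signal (log2 fold change -0.53, standard error 0.0692, adjusted p = 3.18e-04). *Napa*, its adaptor alpha-SNAP, had a log2 fold change of -0.41 (adjusted p = 3.98e-05), and its dimmer probe one of -0.37 (adjusted p = 0.00484). *Napb*, the beta form, was at -0.081 by its brightest probe (adjusted p = 0.136) and at -0.48 by the other (adjusted p = 2.24e-05). No gene of this step reached a fold change of 1.5, but with normexp *Nsf* was called lower (-0.67, adjusted p = 1.99e-04). With spike-in scaling *Nsf* was at -0.32 and *Napa* at -0.19. *Napb* turned positive with spike-in scaling (0.14) and with median scaling (0.0064).

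Of the membrane proteins of granules and vesicles, *Ptprn* was called lower. It encodes the granule antigen ICA512, a phosphatase-like protein of the dense-core granule membrane. *Ptprn* had a log2 signal of 1.26, 1.28, 1.26 and 1.18 on control arrays 1 to 4 and 0.51, 0.51, 0.42 and 0.46 on HX630 arrays 1 to 4. The groups did not overlap, and HX630-treated cells held 58.6% of the control signal (log2 fold change -0.77, standard error 0.039, adjusted p = 1.89e-06). With spike-in scaling it was at -0.55 and was not called. *Ptprn2*, which encodes the related phogrin, was not past the test by any of its 3 probes, with log2 fold changes from 0.082 to 0.16. The SV2 glycoproteins of secretory vesicles differed among themselves. *Sv2a* rose by 0.19 (adjusted p = 0.00998) and *Sv2c* fell by 0.37 on the log2 scale (adjusted p = 0.00119). With spike-in scaling *Sv2a* was at 0.41 (adjusted p = 8e-05) and *Sv2c* at -0.15 (adjusted p = 0.0939). *Sv2b* had a log2 signal of -4.50, -5.26, -4.90 and -5.40 on control arrays 1 to 4 and -5.32, -6.03, -6.06 and -6.75 on HX630 arrays 1 to 4. The mean of *Sv2b* was 2.03-fold lower with HX630, but control replicate 4 and HX630 replicate 1 overlapped and the gene was not called (standard error 0.315, adjusted p = 0.0239). Without HX630 replicate 1 it was called, at a log2 fold change of -1.26 (adjusted p = 0.00655), and it was also called with the replicate number as a block (-1.02, adjusted p = 0.00154).

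**Figure D2:**
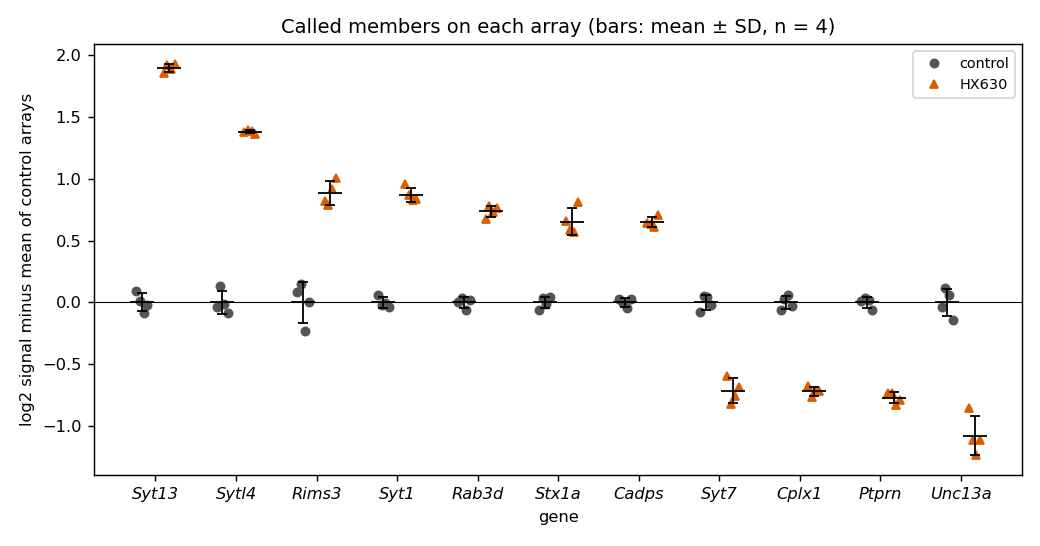
Log2 signal of the 11 called exocytosis genes on each array, minus the mean of the 4 control arrays of that gene, with black bars for mean ± SD (n = 4 per group). The 4 HX630 arrays (triangles) do not overlap the 4 control arrays (circles) for any gene shown, from *Syt13* at 1.90 to *Unc13a* at -1.08.

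An exact two-sided permutation test over the 8 arrays cannot give a p below 0.0286 for a single gene. All 11 called genes reached that value, which only restates that their groups did not overlap. The groups did not overlap for 30 of the 45 genes (66.7%) and for 61.5% of all genes, so it adds no support to the calls. The SD within a group was at most 0.583 over the 45 genes (*Sv2b*) and had a median of 0.0538. With bulk RNA, fewer cells expressing a gene and less RNA per cell cannot be told apart.

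In several pairs of related genes the log2 fold changes had opposite signs, which shows in their ratio within an array and does not depend on the scaling between arrays. These pairs were picked after their values were seen, so the ratios are given as a description with no test. Relative to the mean of the controls, the log2 ratio of *Unc13a* to *Unc13b* ranged from -0.16 to 0.14 on the control arrays and from -1.48 to -1.06 on the HX630 arrays. The ratio of *Cplx1* to *Cplx2* ranged from -0.092 to 0.12 on the control arrays and from -1.22 to -1.10 on the HX630 arrays. The priming factors and the complexins both shifted in the HX630 group between relatives by more than the array spread. For *Cplx2* this rests on its brightest probe. None of its other probes passed the test, with log2 fold changes from 0.0042 to 0.45, and ratios with them were not computed. For *Rab3b* over *Rab3d* the log2 ratio ranged from -0.057 to 0.053 on the control arrays and from -1.40 to -1.20 on the HX630 arrays. For *Rab27a* over *Rab27b* it ranged from -0.15 to 0.23 on the control arrays and from 0.73 to 0.95 on the HX630 arrays. *Syt7* over *Syt1*, the slow against the fast sensor, showed the largest shift of these, with a mean change of -1.59 on the log2 scale. For *Ptprn* over *Ptprn2* the mean change was -0.86, where *Ptprn* was at -0.77 and *Ptprn2*, at 0.093, was not past the test. In all 6 pairs the HX630 arrays were apart from the control arrays.

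**Figure D3:**
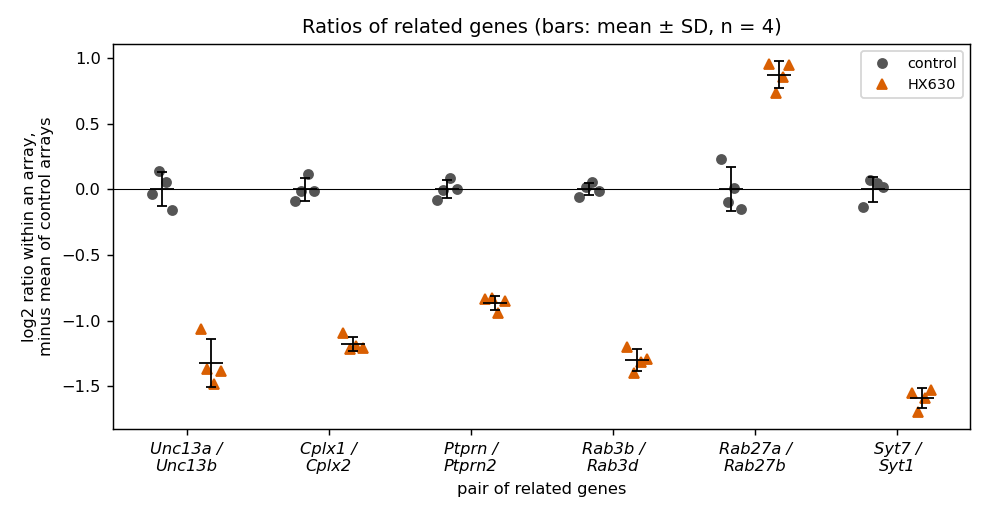
Log2 ratio between the probes of 6 pairs of related exocytosis genes within each array, minus the mean of the control arrays, with black bars for mean ± SD (n = 4 per group). The HX630 arrays (triangles) lie below the control arrays (circles) for *Syt7* over *Syt1* (-1.59), *Unc13a* over *Unc13b* (-1.32), *Rab3b* over *Rab3d* (-1.30), *Cplx1* over *Cplx2* (-1.18) and *Ptprn* over *Ptprn2* (-0.86), and above them for *Rab27a* over *Rab27b* (0.87).

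A list of 76 other genes of the pathway, with further synaptotagmins and SNAREs, synapsins, exocyst subunits and release-site scaffolds, was compared in the same way. Of these, 68 were tested. Called higher were 9 (13.2%, against 8.38% of all genes) and called lower 2 (2.94%, against 11.2%). The largest rises were those of *Pclo*, which encodes the release-site scaffold piccolo, and *Syn2*, which encodes a synapsin that tethers vesicles. Mean log2 signal of *Pclo* was 0.47 ± 0.171 (SD, n = 4) in control and 1.86 ± 0.0272 (SD, n = 4) in HX630-treated cells, which differ by 1.39 (adjusted p = 4.06e-06, limma). That of *Syn2* was 2.64 ± 0.0294 (SD, n = 4) in control and 4.02 ± 0.013 (SD, n = 4) in HX630-treated cells, a difference of 1.39 (adjusted p = 9.11e-08, limma). *Stxbp5l*, a tomosyn that sequesters syntaxin, rose by 0.87 and the synaptotagmins *Syt16* and *Syt2* by 0.78 and 0.76. *Cplx4*, a dim complexin, was at 0.81 (adjusted p = 0.00459) but was not called when any of 6 arrays was left out, nor with normexp, where the sign turned (-0.064). *Syt2* was not called with normexp either (0.43). The 2 genes called lower, named after their values were seen, were *Myrip*, which encodes a Rab27 effector (-0.65, adjusted p = 1.20e-05), and *Cplx3*, a complexin whose groups overlapped (-0.62, adjusted p = 0.00978). Only 1 gene of this list was called lower without control replicate 1 or 3, or without HX630 replicate 2, 3 or 4. The median of the 68 genes was 0.071.

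The level of all genes depended on the scaling between arrays, and with it the balance of calls. With the spike-in control probes as the scale, the median log2 fold change of all genes moved from -0.034 to 0.18, and 13 exocytosis genes were called higher and 1, *Unc13a*, lower. Of all genes, 2479 were called higher and 1038 lower on this scale, and 1708 and 1415 with median scaling, against 1284 and 1710 in the values above. Of the wider list, the counts were 12 and 0 with spike-in scaling and 10 and 0 with median scaling, against 9 and 2. Spike-in scaling shifts all genes of an array alike. The distance of *Syt7*, *Cplx1* and *Ptprn* from the median of all genes was therefore the same on both scales, which adds no support to their calls. Of the 16 genes with several tested probes, *Snap23*, *Stx3* and *Rab3d* had probes that differed in their call, and in no gene were probes called in both directions.

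**Figure D4:**
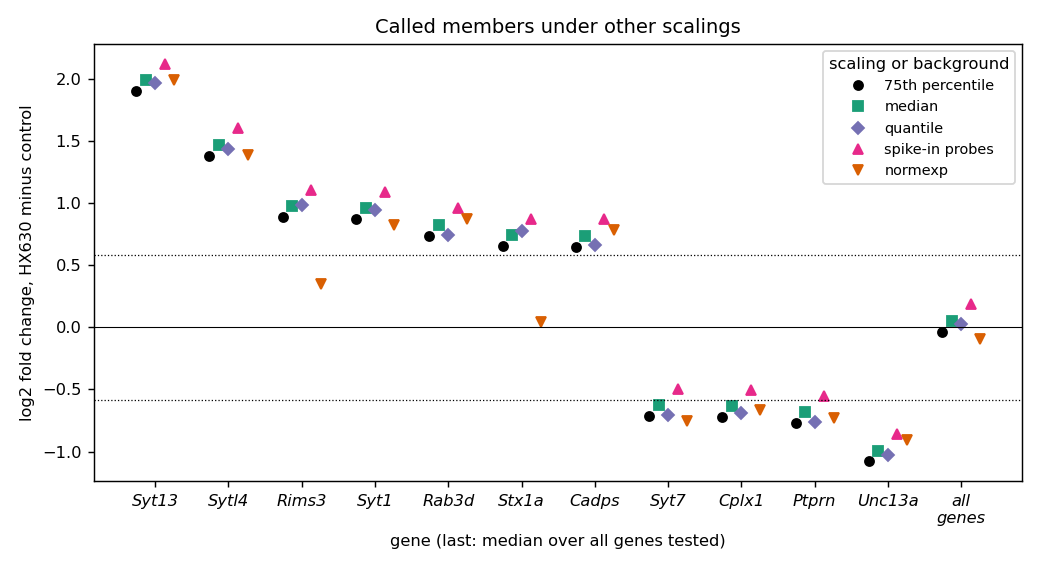
Log2 fold change of the 11 called exocytosis genes and the median over all genes tested, HX630 minus control, under the main scaling, 3 other scalings and normexp background correction. Dotted lines mark a fold change of 1.5. No gene changes sign, *Syt7*, *Cplx1* and *Ptprn* lie inside the line with spike-in scaling, and *Stx1a* (0.043) and *Rims3* (0.35) lie inside it with normexp.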

How the data were processed

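Total RNA of 4 control and 4 HX630 samples of AtT20 cells was labelled in 1 color and hybridised to whole-mouse-genome Agilent arrays of 44397 spots each, of which 1377 were control spots. The authors scanned the arrays and deposited the intensity files of Agilent Feature Extraction 10.7.3.1, with background-corrected processed signals, and a table of log2 values scaled to the 75th percentile of each array, which differed from the values computed here by at most 0.0013.

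From the processed intensity, outlier spots were left out, spots of a probe were averaged on the log2 scale, and the 75th percentile of each array over probes was subtracted. Control spots were not tested. Probes well above background on at least 4 of 8 arrays were tested (28553 of 39429) with limma 3.58.1 in R 4.3.3 (lmFit and eBayes, no covariate). Probes were named by accession through RefSeq (assembly GRCm38.p6), which matched 26055 of 39429, and genes were counted by their brightest tested probe. Tested on simulated data in which 200 of 28553 probes were changed by 1 on the log2 scale, the fit called 77.5% of them, with 1 false call. In the data 51.2% of all genes passed the adjusted p, a far larger share, so these rates do not carry over to the calls above.

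The exocytosis genes, the roles and all other lists were chosen with earlier results of these data known. Every gene of the exocytosis list is named, with each array's value for those called, and of the other pathway genes the 6 called with the largest changes, with the 2 called lower added after values were seen. The values of *Snap25*, *Vamp2*, *Rab3b* and *Sv2b* on each array, the gene pairs and the sequences were added after values were seen. Alternatives covered scaling, background correction, filters, outlier spots, variance model, test, threshold, choice of probe, replicate number and each array left out. The number of arrays limits the precision. No array pair held identical values.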

Additional observations from a re-analysis of the deposited data

Results flagged for a closer look

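In 102 groups of 4 arrays, over the exocytosis genes and the named genes of the wider pathway, 3 held an array far from the others by Dixon's ratio of gap to range (above its 95% critical value), where chance gives about 1 in 20, or 5.1. HX630 replicate 1 was high for *Syt11*, with a ratio of 0.898 (log2 signal 3.41 against a mean of 3.32 on the others). HX630 replicate 3 was low for *Stx7*, with a ratio of 0.878 (2.29 against 2.38). HX630 replicate 3 was high for *Nsf*, with a ratio of 0.836 (1.61 against 1.42).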

How the results depend on the processing

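Over 45 exocytosis genes and 24 alternatives, 1012 of 1080 comparisons kept direction and side of the threshold, 31 reversed, 5 lost a call and 32 gained one. For the 11 called genes none of 264 reversed. The alternatives in filter, variance model, test, threshold and replicate block refit the same values, so those comparisons could not reverse a direction. The cause of the changes below was not tested. Spike-in scaling gave 13 genes called higher and 1 lower, with 2479 and 1038 among all genes and a median of 0.23 over the exocytosis genes (0.18 over all genes). *Syt7* (-0.50), *Cplx1* (-0.50) and *Ptprn* (-0.55) lost their call, while *Snap29* (0.77), *Stx6* (0.69), *Vamp7* (0.78), *Cplx2* (0.68), *Rab27a* (0.69) and *Rims2* (0.59) gained one. The signs of *Stx3* (0.12), *Stx4a* (0.10), *Stx7* (0.098), *Vamp2* (0.16), *Vamp8* (0.20), *Stxbp2* (0.19), *Rab3c* (0.21), *Rph3al* (0.063) and *Napb* (0.14) turned. Median scaling gave a median of 0.095 (0.053 over all genes) and turned *Vamp2* (0.029), *Vamp8* (0.072), *Stxbp2* (0.059), *Rab3c* (0.076) and *Napb* (0.0064). *Snap29* (0.64) and *Vamp7* (0.64) gained a call with median scaling, and *Cplx2* (0.65) with quantile normalization. Quantile normalization turned *Vamp8* (0.045) and *Stxbp2* (0.040), and the percentile over detected probes *Vamp8* (0.0025) and *Rab3c* (0.0072). Normexp, run on the median spot signal, turned *Stx4a* (0.053), *Vamp3* (-0.078), *Stxbp2* (0.018), *Rab3c* (0.042), *Rph3a* (-0.10) and *Cplx4* (-0.064), and *Stx1a* (0.043) and *Rims3* (0.35) lost their call. *Snap29* (0.62) and *Nsf* (-0.67) gained a call with normexp. The mean of all probes turned *Snap23* (-0.44). With no fold threshold, 16 exocytosis genes were called higher and 12 lower, 18 and 11 of the wider list, and 3679 and 4166 of all genes. Of the wider list, 1 was called lower with quantile normalization, the percentile over detected probes and the methods' t-test (both before and after Benjamini-Hochberg adjustment), and 0 with median scaling, spike-in scaling and normexp, against 2 in limma.

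With each array left out in turn, 7 exocytosis genes were called higher throughout and 4 to 5 lower, 7 to 8 and 1 to 2 of the wider list, and 1191 to 1520 and 1571 to 1810 of all genes. The exocytosis median ranged from 0.0016 to 0.044, *Rab3c* from -0.12 to 0.082 and *Stxbp3* from -0.0087 to 0.029. Without both first-position arrays, chosen after seeing the data, *Stxbp3* was -0.0041, and *Rab3b* (-0.59) and *Sv2b* (-1.09) were called lower.

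The replicate numbers, which are also slide positions, were not taken as pairs, since 1 of the 4 correlations of deviations (0.523, -0.00929, 0.243 and 0.381) was not above 0.1. The other 3 were, and 5 of 8 arrays were closest to their own number, a hint of shared deviations from the data and not from the design. With the replicate number as a block, *Sv2b* (-1.02) was called lower (adjusted p = 0.00154, limma), and no other of 51 genes changed its call. The slide as a block could not be fitted.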
